A study of Mus musculus with 24 samples.

Results

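The cytosolic ribosomal protein genes of the mouse Nucleus Accumbens (NAc) were followed through stress in both sexes. Members were chosen by name, as protein-coding genes with symbols that begin with Rpl or Rps and a digit, together with Rpsa, Rplp0, Rplp1 and Rplp2. Genes of the S6 kinases (Rps6k) and pseudogenes were left out. Of 38293 genes counted, 85 carried such a name. More than 5 reads in all 3 libraries of at least 1 group were found for 83 of them, which were tested among 18593 genes. The other members were Rpl10l, at 0 reads in every library, and Rpl39l, at 0 to 5 reads per library, both known for their use in the testis.

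Each of the 12 mRNA libraries pooled 10 bilateral NAc punches from 5 C57BL/6J mice, 9 weeks of age by the sample labels. The groups, with 3 libraries each, were nonstressed males (NSM), males exposed to Subchronic Variable Stress (SM), nonstressed females (NSF) and females exposed to it (SF). Subchronic Variable Stress (SCVS) alternated foot shock, tail suspension and physical restraint from day to day, and tissue was taken on the day after the last stressor. Controls were group housed without stressors, no mouse carried a transgene, all females were in estrus or proestrus, and behavior was not measured in these mice. A p-value therefore describes the spread between pools, which averages over the mice in them. In punches of bulk tissue, fewer cells of a type and less RNA per cell cannot be told apart.

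Ribosomal proteins clothe the ribosomal RNAs of the small (Rps) and large (Rpl) subunits, and cells make them in near equal numbers. Their mRNAs begin with a run of pyrimidines at the 5′ end, the TOP motif, through which the mTOR pathway sets how strongly they are translated. In neurons they are found in the cell body and also along dendrites and axons, where proteins are made locally.

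Between 41076780 and 60867747 reads were counted per library. Markers of striatal projection neurons reached a summed level of 5645 to 7085 CPM (read counts scaled to a common library size) in every group, with 10 of 10 markers past the read filter and Ppp1r1b, a phosphoprotein of striatal neurons, at 761 to 1006 CPM. Markers of cortical glutamatergic neurons varied far more, from 53.5 to 405 CPM summed, with Slc17a7 between 4.02 and 297 CPM. A second entry of the marker Cux2 had no reads, and the listed Lamp5 was not found by that symbol. Mitochondrially encoded transcripts took 8.61% to 11.8% of reads. No libraries of a group held identical counts.

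The most abundant ribosomal protein mRNA per length of exon was Rplp1, at 487 CPM per kilobase. Rplp1 encodes an acidic protein of the P stalk, the arm of the large subunit that recruits elongation factors. It was followed by Rpl4 at 338 CPM per kilobase, Rps15 at 302, Rpl3 at 240 and Rpl32 at 237. The other acidic P stalk protein, Rplp2, stood at 31.5 CPM per kilobase, and their common anchor Rplp0 at 73.1. Exon length is here the union of all annotated transcripts of a gene, which may be longer than the mRNA in use. At the other end were Rpl3l, the muscle form of Rpl3, at 0.244 CPM per kilobase, Rpl21 at 3.53, Rps4y2 at 7.23, Rps27l at 8.44 and Rpl7l1 at 13.03. Rpl21 has many pseudogenes, and if reads that match several copies were dropped, its count understates its mRNA. The order of levels was nearly the same in all groups, as the plot of levels per kilobase shows.

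**Figure D1:**
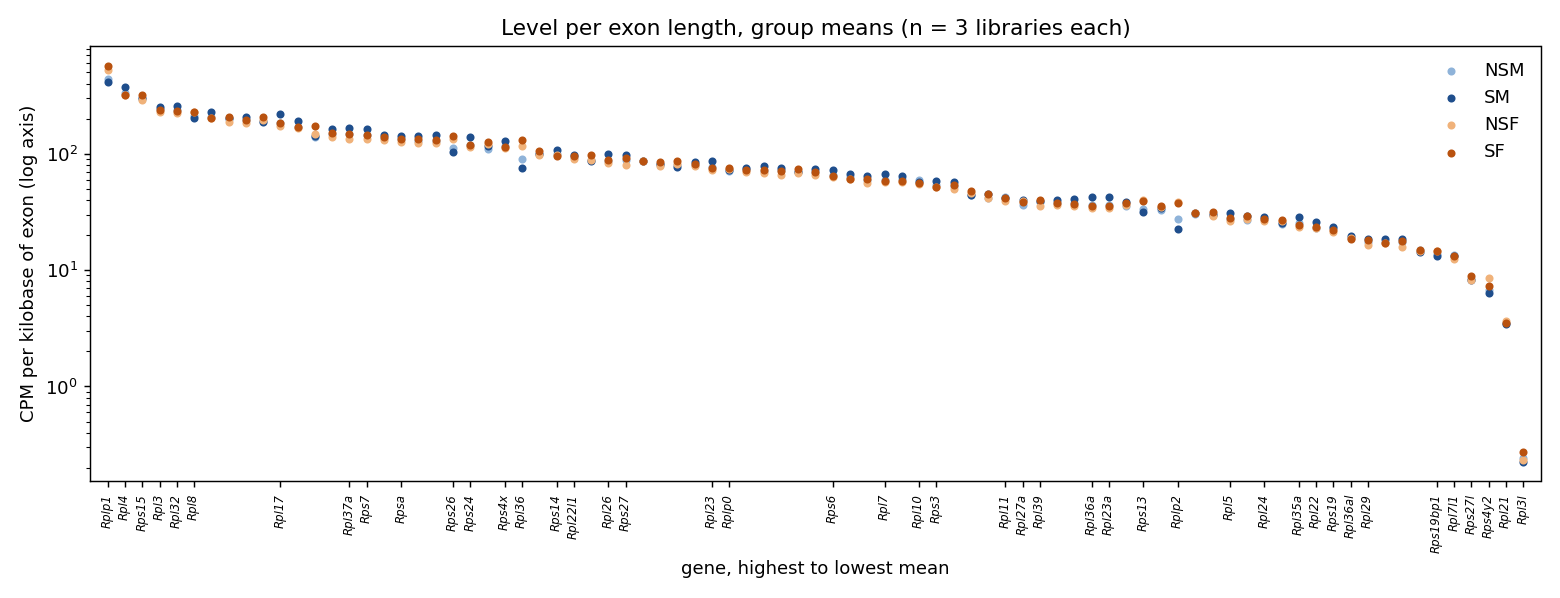
Mean CPM per kilobase of exon (log axis) for each of 83 ribosomal protein genes, ordered from highest to lowest, with a point per group (n = 3 libraries) and symbols for genes named in the text. Levels fell from 487 for Rplp1 to 0.244 for Rpl3l, and the points of a gene lay close together except at genes such as Rpl36 and Rplp2.

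Rodent genomes hold relatives of several ribosomal protein genes that can take the place of the parent protein in the ribosome. Rpl22l1 was the only one of 6 tested relatives above its parent per kilobase, with a median of 403% of Rpl22 over the 12 libraries and a range of 351% to 438%. This order came from the length of the exons, 489 bases for Rpl22l1 and 2911 for Rpl22. Without scaling by length Rpl22l1 was the lower, at 46.1 CPM against 69.1 CPM, and the coding sequences are of nearly equal length (369 and 387 bases). Rpl36al stood at 43.4% to 58.3% of Rpl36a, Rpl7l1 at 19.2% to 24.1% of Rpl7, and Rps27l at 7.53% to 11.6% of Rps27. The lowest shares were those of Rps4y2, at 4.05% to 8.67% of Rps4x, and of Rpl3l, at 0.0464% to 0.167% of Rpl3. The coding sequence of Rpl36al was 87.9% identical to that of Rpl36a, and that of Rps4y2 79.8% identical to Rps4x, so that reads of such pairs may be split between them. Reads on 132 ribosomal protein pseudogenes amounted to 1.68% to 1.82% of the reads on the members, and how reads that match several copies were counted is not given in the sources used here.

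Together the members took 0.885% to 0.956% of all counted reads in NSM, 0.911% to 0.981% in SM, 0.837% to 0.977% in NSF and 0.916% to 0.947% in SF. These ranges overlapped in every pair of groups. The large subunit took 0.495% to 0.575% and the small subunit 0.341% to 0.405% of reads, and both were lowest in NSF3 and highest in SM1. Of the 83 genes, 50 had their lowest level of all libraries in NSF3 and 48 their highest in SM1, as the color map of all members shows. Most members varied little, with a median standard deviation of 0.11 in log2 CPM over the 12 libraries. A standard deviation of at least 0.2 was found for 7 genes, of which Rpl36, with 2.99 times between its lowest and highest library, and Rplp2, with 2.37 times, had the largest.

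**Figure D2:**
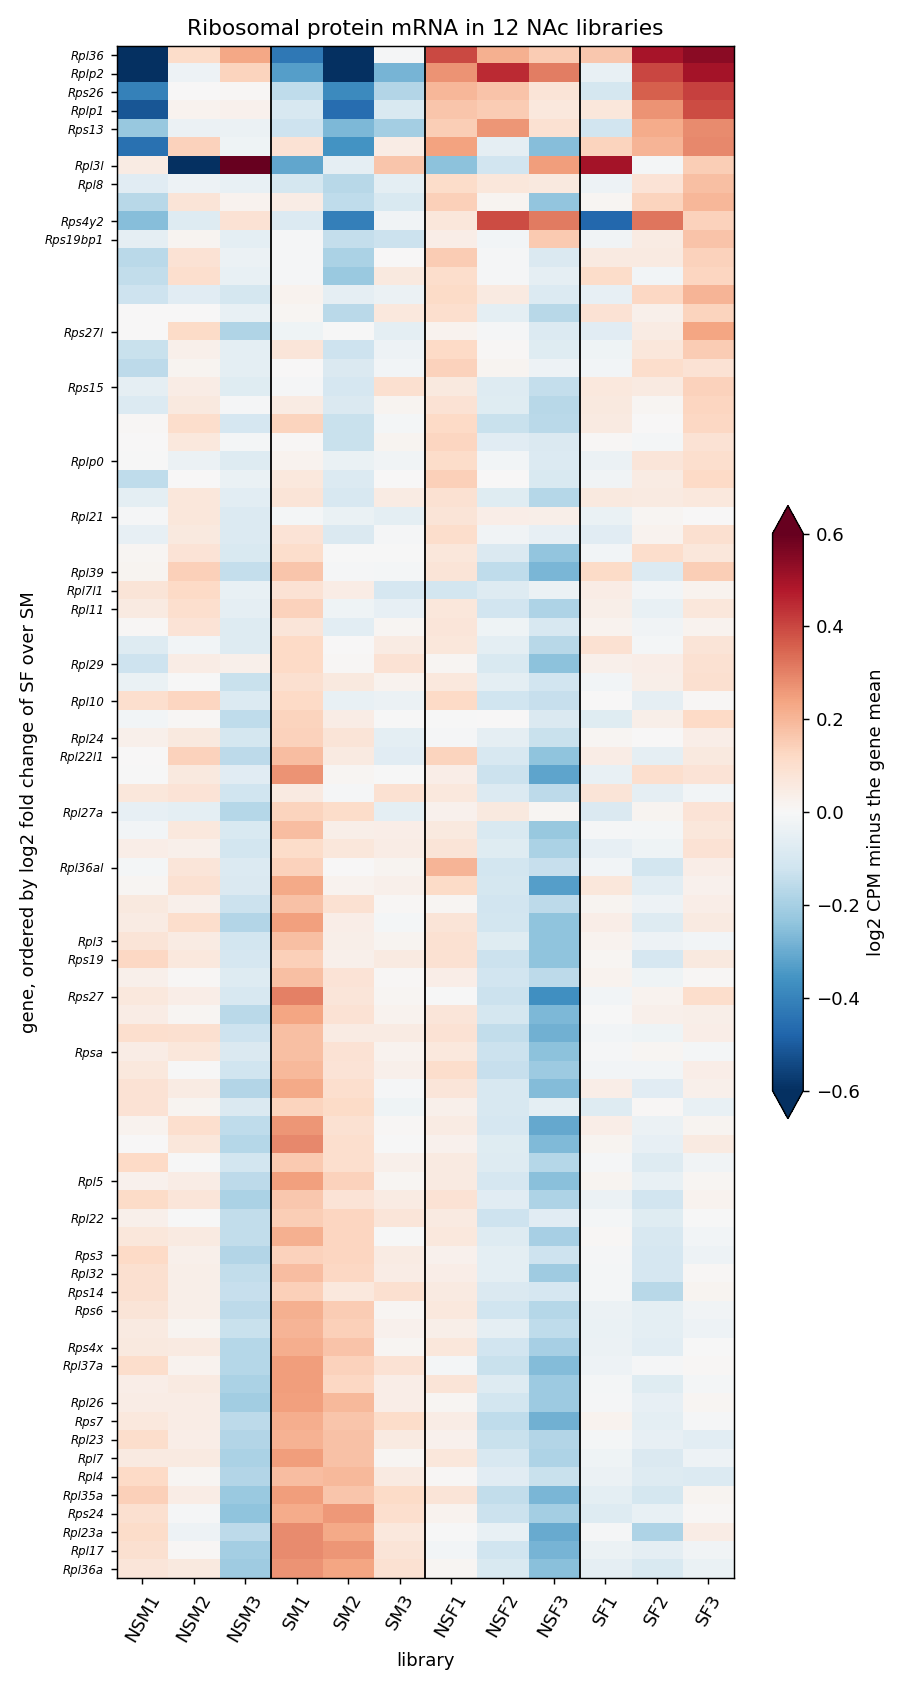
Log2 CPM minus the mean of the gene (color) for 83 ribosomal protein genes (vertical axis, ordered by the fold change of SF over SM) in 12 libraries (horizontal axis, groups parted by lines), with symbols for genes named in the text. Most genes share a pattern, highest in SM1 for 48 genes and lowest in NSF3 for 50, while a band at the top led by Rpl36, Rplp2, Rps26 and Rplp1 is lowest in NSM1 and SM2.

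In males, most ribosomal protein mRNAs stood slightly above their level in controls after SCVS, without any change that met the criteria for regulation by SCVS. By limma, 0 of 83 genes passed both thresholds for a call (fold change from 1.3 up, unadjusted p under 0.05), against 6.44% of all tested genes, and edgeR and DESeq2 likewise called 0. Without the fold threshold, 13 genes (15.7%) were higher in SM and 0 lower, against 9.93% of all genes higher and 11.5% lower. The log2 fold change was above 0 for 64 of 83 genes, against 47.3% of all genes, with a median of 0.09 against -0.01. The smallest Benjamini-Hochberg adjusted p of a member was 0.104 by limma. So 0 members were under 0.05, against 3.32% of all genes, as by edgeR. DESeq2 gave 1 member an adjusted p under 0.05, beside 1180 of all genes.

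The gene with the smallest p in males was Rps24, a small subunit protein that can be mutated in the inherited Diamond-Blackfan anemia. Rps24 stood at 117, 109 and 92.8 CPM in the NSM libraries and at 128, 132 and 118 CPM in the SM libraries. The lowest SM library lay just above the highest NSM library, and NSM3 was lowest of all. The log2 fold change was 0.25 ± 0.08 (SE, 1.19-fold, adjusted p = 0.104 by limma). Rpl36a, whose protein lies near the exit site of transfer RNA on the large subunit, showed 64.4, 63.8 and 52.7 CPM in NSM and 73.7, 72.1 and 65.1 CPM in SM. Here too the groups did not overlap, by a narrow margin, with a log2 fold change of 0.23 ± 0.08 (adjusted p = 0.137 by limma).

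The other 11 genes at an unadjusted p under 0.05 by limma included Rpl4, Rpl7, Rpl17, Rpl22, Rpl23, Rpl23a, Rpl26, Rpl27a, Rpl37a and Rps7. All 13 lay between 0.15 and 0.25 in log2 fold change, and those outside the named lists were picked after their values were seen. In each of the 13 the highest library was SM1 or SM2, and the lowest male library was NSM3. The 3 libraries of SM lay wholly above those of NSM for 8 members, against 11.3% of all genes, and wholly below for 0, against 11.7%. Without NSM3, 1 member was left at an unadjusted p under 0.05 by limma, and without SM1 there were 2. Of all genes, 2511 and 2887 were under that p in either direction. Without NSM1, Rplp2 (-0.50) and Rpl36 (-0.59) were called lower. Dividing by library size alone left 4 members at that p, beside 4310 of all genes in either direction. On that scale 50 of 83 members were above 0, with a median log2 fold change of 0.04, and the median of all genes moved to -0.06.

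By role, 3 of the 33 small subunit genes and 10 of the 49 large subunit genes were higher at an unadjusted p under 0.05, with median log2 fold changes of 0.09 and 0.08. The small subunit count did not exceed the 9.93% of all genes. A list of 4 genes held those tied to the 5S ribosomal RNA (Rpl5 and Rpl11) and others tied to p53. Their proteins bind the p53 inhibitor Mdm2 when ribosome assembly fails. Of these, Rpl26 was at 0.20 ± 0.08 and Rpl23 at 0.16 ± 0.07. Rpl5 was at 0.16 ± 0.08 and Rpl11 at -0.01 ± 0.07, both short of that threshold. Of the 17 genes mutated in Diamond-Blackfan anemia, 3 were higher (Rps24, Rpl26 and Rps7) and 0 lower, again beside 9.93% and 11.5% of all genes. The P stalk genes had log2 fold changes of -0.27 ± 0.18 for Rplp2, -0.06 ± 0.13 for Rplp1 and 0.03 ± 0.05 for Rplp0, none of which had a p under 0.05 by limma.

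Other features of the SM libraries differed from NSM too. Mitochondrial transcripts took 10.7% to 11.8% of reads in SM and 8.78% to 10.1% in NSM. All 5 erythroid markers were higher at an unadjusted p under 0.05 by limma, from a summed 21.8 to 27.4 CPM in NSM to 38.5 to 47.2 CPM in SM, with 0 of them at 0 reads. Of the oligodendrocyte markers 5 of 7 were higher, from 4617 to 5167 CPM in NSM to 5551 to 5582 CPM in SM. Markers of microglia were higher in 4 of 6 cases, from 237 to 253 CPM in NSM to 265 to 293 CPM in SM. Cortical glutamatergic markers stood at a summed 53.5 to 71.5 CPM in NSM and 92.9 to 241 CPM in SM, with 3 of 9 higher and a median log2 fold change of 2.20. Of the choroid plexus and ependyma markers 2 of 5 were lower, with a median of -0.83, at 20.5 to 88.8 CPM in NSM and 15.4 to 19.2 CPM in SM. None of these 5 summed ranges overlapped. Septal and hypothalamic markers, at a summed 29.5 to 35.4 CPM in NSM and 25.8 to 29.0 CPM in SM, did not overlap either. Of these, 0 of 2 tested were higher or lower at that p. Striatal projection neuron markers, whose ranges did overlap, were higher in 3 of 10 cases and lower in 0, with a median log2 fold change of 0.12. Of all genes, 9.93% were higher and 11.5% lower at an unadjusted p under 0.05 by limma. The part of these in the ribosomal protein values was not tested.

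**Figure D3:**
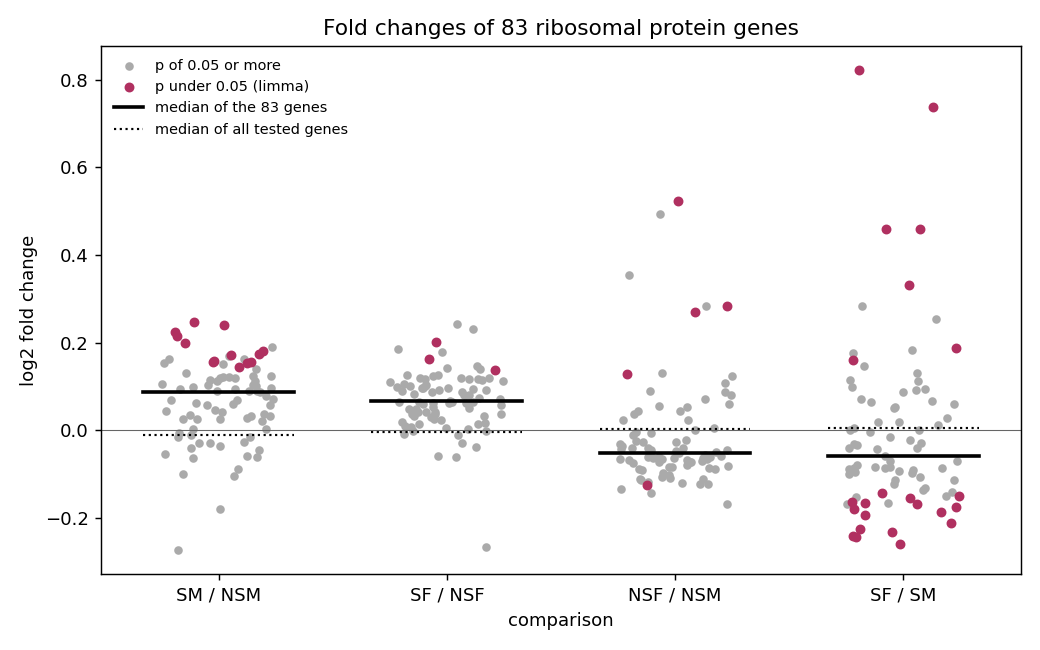
Log2 fold change (vertical axis) of each of 83 ribosomal protein genes in 4 comparisons (horizontal axis), with genes at an unadjusted p under 0.05 by limma in red, the median of the members as a solid line and that of all tested genes as a dotted line. Members sit mostly above 0 after SCVS in both sexes (medians 0.09 and 0.07) and mostly below 0 for females over males, where a few genes led by Rpl36 and Rplp2 lie far above.

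In females, the ribosomal protein mRNAs were likewise mostly above their controls by small amounts, and nearly all differences lay within the spread between pools. By limma, 0 of 83 genes met the criteria for regulation, against 1.73% of all genes, and edgeR and DESeq2 also called 0. At an unadjusted p under 0.05, 3 genes (3.61%) were higher and 0 lower, against 1.94% and 2.29% of all genes. The log2 fold change was above 0 for 74 of 83 genes, against 48.4% of all genes, with a median of 0.07 against 0.00. The smallest adjusted p of a member was 0.948 by limma, and 0% of all genes had one under 0.05.

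The 3 genes were Rps15, Rpl29 and Rps27, of which Rpl29 is in no named list and was picked after its values were seen. Rps15, in the head of the small subunit, stood at 204, 186 and 178 CPM in NSF and at 205, 204 and 216 CPM in SF. Its groups overlapped, since NSF1 was as high as the lower SF libraries, and the log2 fold change was 0.14 ± 0.06 (adjusted p = 0.948 by limma). Rps27 stood at 30.6, 28.1 and 23.8 CPM in NSF and at 30.3, 31.1 and 33.0 CPM in SF, with a log2 fold change of 0.20 ± 0.09 and again an overlap through NSF1.

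These numbers depended on which NSF pools were counted. NSF3 was the lowest female library for 69 of 83 members. Without NSF3, 0 members had an unadjusted p under 0.05 by limma and the median log2 fold change fell to 0.02, whereas without NSF1 there were 29 and a median of 0.13. Of all genes, 478 without NSF3 and 794 without NSF1 were under that p in either direction. Without NSF2 or without SF3 there were 0 such members, with scaling by library size 1 was higher, and without SF2 1 was higher and 1 lower. The lower one was Rps4y2, which was called at -0.44. The SF libraries lay wholly above NSF for 3 members, Rpl24, Rpl29 and Rpl7l1, against 4.9% of all genes, and wholly below for Rpl21 alone, against 6.41%. Rpl24 was named after its values were seen. The summed cortical glutamatergic markers, at 69.4 to 405 CPM in NSF and 88.0 to 160 CPM in SF, varied among these pools, and their part in the result was not tested.

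The effects of SCVS in the 2 sexes were compared in the same fit. Of 83 genes, 60 were above 0 and 5 below 0 in both sexes. The sex-by-stress interaction met the criteria for 0 members by limma, against 4.42% of all genes, and had an unadjusted p under 0.05 for 0 members, against 9.55%, or an adjusted p under 0.05 for 0, against 0.0269%. edgeR and DESeq2 each found 1 at an unadjusted p under 0.05 and 0 at an adjusted one. The median interaction was -0.01 on the log2 scale, with 39 members above 0 (52 with scaling by library size, at a median of 0.02), and the smallest adjusted p of a member was 0.524 by limma. The interval these data allow is wide beside the effects, as the median standard error of a member's interaction was 0.11 and that of a single contrast 0.07. Without NSM1, Rplp2 (0.44) and Rpl36 (0.74) met the criteria, and without NSM1 and SM2 Rpl36 (0.53).

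Between the sexes without stress, most ribosomal protein mRNAs were slightly lower in females. The share of members that stood higher lay under that of all genes at each threshold. The log2 fold change of NSF over NSM was above 0 for 24 of 83 genes, against 51% of all genes, with a median of -0.05. This lean rested on single pools, since without NSF3 38 of 83 were above 0 with a median of -0.0043, whereas without NSF1 the median was -0.13 and without NSM3 -0.12. Called were 1 gene higher, against 4.17% of all genes, and 0 lower, against 1.15%, by limma. That gene was Rplp2 (chr7:148633269-148637484, build NCBIM37), the acidic P stalk protein named above. It stood at 40.6, 61.6 and 69.1 CPM in NSM and at 76.0, 86.0 and 77.9 CPM in NSF. All NSF libraries were above all NSM libraries, and NSM1 was far below its 2 fellows. The log2 fold change was 0.52 ± 0.18 (1.44-fold, adjusted p = 0.187 by limma). Without NSM1 it was 0.28, and 0 members were called. Rpl36 was called as well without NSM2 (0.66) or NSM3 (0.73), and Rps4y2 without NSM3 (0.44) or NSF1 (0.43). Despite its symbol, Rps4y2 lies on chromosome 6 in this build and not on the Y chromosome.

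At an unadjusted p under 0.05 alone, 4 members were higher in NSF, against 10.2% of all genes, and 1 was lower, against 5.17%, by limma. Without NSF1 18 were lower, and without NSM3 14, beside 2517 and 3314 of all genes under that p in either direction. The higher genes were Rplp2, Rps13 (0.27 ± 0.09), Rps26 (0.28 ± 0.13) and Rpl8 (0.13 ± 0.05), of which Rps13 and Rpl8 were named after their values were seen. With the GC trend of each library removed, as described further on, Rpl8 turned to -0.02, and without NSM1 Rps26 was at 0.13 and no longer under that p. The libraries did not overlap for 6 members higher in NSF, against 11% of all genes, and 0 lower, against 8.45%. An adjusted p under 0.05 was found for 0.285% of all genes and for 0 members by limma, edgeR or DESeq2. The lower gene was Rpl7l1, a relative of Rpl7 with a part in ribosome assembly, at -0.13 ± 0.06. The members on the X chromosome were not higher in females, with log2 fold changes of -0.10 ± 0.07 for Rpl10, -0.08 ± 0.08 for Rpl36a, -0.12 ± 0.09 for Rpl39 and -0.06 ± 0.08 for Rps4x. None of these 4 had a p under 0.05 by limma. Beside these differences, 5 of 9 tested cortical glutamatergic markers were higher in NSF at an unadjusted p under 0.05 by limma, from a summed 53.5 to 71.5 CPM in NSM to 69.4 to 405 CPM in NSF. Erythroid markers stood at 21.8 to 27.4 CPM in NSM and 29.8 to 38.9 CPM in NSF, with 2 of 5 higher, and oligodendrocyte markers at 4617 to 5167 CPM and 5267 to 5642 CPM, with 3 of 7 higher. Septal and hypothalamic markers were at 29.5 to 35.4 CPM in NSM and 36.7 to 53.4 CPM in NSF, with 1 of 2 tested higher. Endothelial markers were at 137 to 145 CPM in NSM and 149 to 157 CPM in NSF, with 0 of 5 higher. The part of these was not tested.

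After SCVS, a larger share of the members than of all genes was lower in SF than in SM, while the share that was higher lay near or under that of all genes. By limma, 4 members were called higher in SF than in SM, against 4.58% of all genes, and 0 lower, against 0.968%. The 4 were Rplp2, Rpl36, Rps26 and Rplp1. Without the fold threshold, 7 were higher, against 11.7% of all genes, and 16 (19.3%) were lower, against 4.76%. The libraries did not overlap for 8 members higher in SF, against 12.8% of all genes, and for 23 members lower in SF (27.7%), against 7.65%. The smallest adjusted p of a member was 0.0917 by limma, with 0 members under 0.05, against 0.145% of all genes, as by edgeR. DESeq2 gave 5 members, beside 591 of all genes, and a limma fit of these 6 libraries alone gave 8, beside 508.

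Rplp2 stood at 50.03, 37.6 and 52.0 CPM in SM and at 61.0, 82.96 and 88.9 CPM in SF, a log2 difference of 0.74 ± 0.18 (1.67-fold, adjusted p = 0.0917 by limma). Every SF library was above every SM library. Its partner Rplp1 (chr9:61761091-61762345) stood at 222, 173 and 223 CPM in SM and at 249, 286 and 312 CPM in SF, a log2 difference of 0.46 ± 0.13 (1.38-fold, adjusted p = 0.116 by limma). Their anchor Rplp0 did not follow, at 123, 118 and 119 CPM in SM and 118, 127 and 130.1 CPM in SF, with a log2 difference of 0.06 ± 0.05.

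Rpl36 (chr17:56752818-56753666), a protein of the large subunit, had the largest difference of all members. It stood at 29.4, 22.4 and 39.4 CPM in SM and at 44.4, 55.8 and 57.7 CPM in SF, a log2 difference of 0.82 ± 0.27 (1.77-fold, adjusted p = 0.148 by limma). The groups did not overlap. Rps26 (chr10:128061586-128063562), which lines the exit of the messenger channel on the small subunit, stood at 48.7, 41.5 and 47.9 CPM in SM and at 50.3, 69.5 and 71.9 CPM in SF. Its log2 difference was 0.46 ± 0.13 (1.38-fold, adjusted p = 0.113 by limma), and SF1 lay barely above SM1. The remaining 3 higher members were Rps13 at 0.33 ± 0.09, Rpl8 at 0.19 ± 0.05 and Rps19bp1, a nucleolar binding partner of Rps19 and no subunit itself, at 0.16 ± 0.07. With the GC trend of each library removed Rpl8 moved to 0.01 and Rps19bp1 to 0.04, neither at an unadjusted p under 0.05 by limma, and Rps19bp1 was under it in 6 of 28 alternatives.

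**Figure D4:**
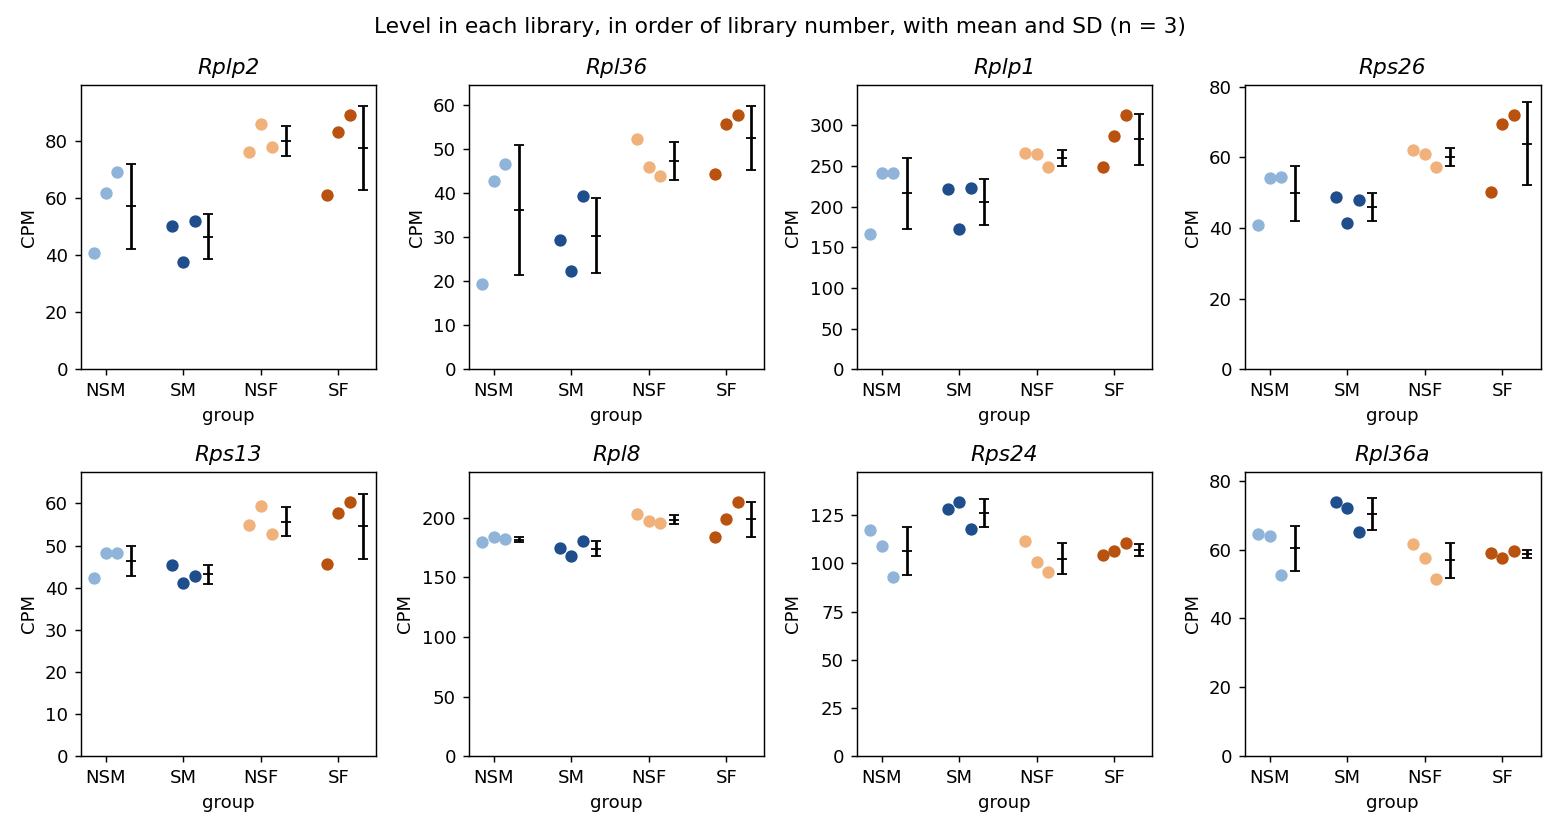
CPM (vertical axis, from 0) of 8 ribosomal protein genes in each library, in order of library number within the 4 groups (horizontal axis), with the mean and SD of the 3 libraries as a bar. Rplp2, Rpl36, Rplp1 and Rps26 are lowest in NSM1 and SM2 and higher in SF than in SM, whereas Rps24 and Rpl36a are highest in SM.

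All 7 members that were higher in SF than in SM were also above 0 for NSF over NSM, and all 7 had their lowest level of the 12 libraries in NSM1 or SM2. Rpl36 fell to 19.3 CPM in NSM1, against 42.8 and 46.6 CPM in NSM2 and NSM3. Over all members, NSM1 and SM2 were the lowest pair for 10 of 83 genes. Without SM2, only Rplp2 was called by limma, and Rpl36 moved to 0.60, Rps26 to 0.37 and Rplp1 to 0.32. With both NSM1 and SM2 left out, Rplp2 and Rpl36 were called. Without SF1, Rps13 (0.45) and Rps4y2 (0.41) were called besides the 4, and without SF3 Rps26 was at 0.37 and no longer called.

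The 16 members lower in SF than in SM at an unadjusted p under 0.05 by limma lay between -0.26 and -0.14 on the log2 scale. They included Rpl4, Rpl7, Rpl17, Rpl22, Rpl23, Rpl23a, Rpl26, Rpl35a, Rpl36a, Rpl37a, Rps3, Rps6, Rps7, Rps14 and Rps24, those outside the named lists being picked after their values were seen, and 12 of the 16 were among the 13 noted for SM over NSM, a comparison that shares the SM libraries. Rpl36a, at 73.7, 72.1 and 65.1 CPM in SM, stood at 59.0, 57.5 and 59.5 CPM in SF, a log2 difference of -0.26 ± 0.08 (adjusted p = 0.135 by limma). The SF pools were nearly level and all below SM. Rpl4, which lines the tunnel that the new protein chain leaves by, stood at 545, 549 and 497 CPM in SM and at 467, 454 and 452 CPM in SF, a log2 difference of -0.21 ± 0.07 (adjusted p = 0.147 by limma). Rps6, the member that S6 kinase phosphorylates, was at -0.16 ± 0.07. Without SM1, 4 members were lower at an unadjusted p under 0.05 by limma, and without SF2 5. Of all genes, 2389 and 1981 were under that p in either direction. All 5 erythroid markers were lower in SF than in SM as well, at a summed 28.8 to 31.9 CPM against 38.5 to 47.2 CPM. Microglia markers were lower in 2 of 6 cases and higher in 1. Choroid plexus and ependyma markers were higher in 2 of 5 cases, with a median log2 difference of 0.80, at 20.8 to 26.0 CPM in SF against 15.4 to 19.2 CPM in SM. Septal and hypothalamic markers stood at a summed 33.0 to 64.6 CPM in SF and 25.8 to 29.0 CPM in SM, with 1 of 2 tested higher. The part of these was not tested.

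To show what the start of such a gene looks like, 30 bases before and 30 bases from the annotated start are given for members of both sets, as far as the table of start sites from RefSeq (build GRCm38.p6) held them. Capitals mark runs of at least 6 pyrimidines on the sense strand. The first 3 genes were higher in SF than in SM and the other 4 lower. The windows are chr7:141447621-141447680 (plus strand) for Rplp2, chr10:128626477-128626536 (minus) for Rps26, chr7:116334161-116334220 (minus) for Rps13, chrX:134585624-134585683 (plus) for Rpl36a, chr14:24490648-24490707 (plus) for the first start of Rps24, chr9:64173357-64173416 (plus) for Rpl4 and chr11:97782410-97782469 (minus) for Rpl23.
Rplp2: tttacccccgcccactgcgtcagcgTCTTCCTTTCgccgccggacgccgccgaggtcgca
Rps26: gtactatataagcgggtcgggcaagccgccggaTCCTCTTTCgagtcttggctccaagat
Rps13: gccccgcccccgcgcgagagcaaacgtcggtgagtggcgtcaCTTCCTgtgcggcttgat
Rpl36a: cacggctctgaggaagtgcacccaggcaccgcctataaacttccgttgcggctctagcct
Rps24: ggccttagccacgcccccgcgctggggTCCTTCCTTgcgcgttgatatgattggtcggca
Rpl4: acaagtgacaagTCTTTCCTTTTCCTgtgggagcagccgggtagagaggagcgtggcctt
Rpl23: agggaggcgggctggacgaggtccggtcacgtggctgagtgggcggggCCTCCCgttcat

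Such runs stood near the start in both sets, in each gene shown but Rpl36a, and in Rplp2 and Rps24 the run covered the first transcribed base. In all, 62 of 83 members were matched to 74 annotated starts. A run of at least 6 pyrimidines lay in this window at 71.6% of the 74 member starts and at 49.6% of 32851 starts in the table. A C at the first base followed by at least 4 pyrimidines, the letters of the TOP motif, stood at 17.6% of member starts and 2.51% of all starts. Searched on both strands over the 300 bases around the start, CCGGAAG was found at 33.8% of member starts and 8.86% of all starts, CTTTCC at 48.6% and 26.6%, and TATAAA at 9.46% and 13.6%. These are matches of letters in annotated windows, and an annotated start can lie some bases from the one in use.

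The set of members that was higher in SF and the set that was lower differed in base composition. The 7 higher genes had a median exon GC content of 56.6% (47.7% to 60.9%) and the 16 lower genes one of 48.9% (45.0% to 55.1%), against 50.7% over all 83. Across the 83 members the log2 fold change of SF over SM was greater at higher GC content (Pearson's r = 0.46, Spearman's rho = 0.52), and across all 17795 genes with a GC value r was 0.29. For SM over NSM, r was -0.43 across members and -0.08 across all genes, and for SF over NSF 0.04 and -0.11. These are descriptions across genes, which share libraries and are not independent replicates.

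The same relation stood in single libraries. Across all genes, the deviation of a library from the gene mean correlated with GC content at r = -0.35 in SM2 and -0.28 in NSM1, the libraries with the lowest Rplp2 and Rpl36, and at 0.29 in NSF3. With the GC trend of each library removed, 3 members were called higher in SF than in SM by limma, Rplp1 moving to 0.31, and 5 were higher and 20 lower at an unadjusted p under 0.05. Of all genes, 755 were called and 2563 were under that p, in either direction. In the same setting the median log2 fold change in males was 0.09 and in females 0.07. The r across all genes was below 0 in all 3 SM libraries and above 0 in all 3 NSF libraries. It was lower in every SM library (-0.35 to -0.05) than in every SF library (-0.03 to 0.23). Likewise it was lower in every NSM library (-0.28 to 0.07) than in every NSF library (0.13 to 0.29). In both comparisons of the sexes, the lean in GC content and the group therefore cannot be told apart.

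**Figure D5:**
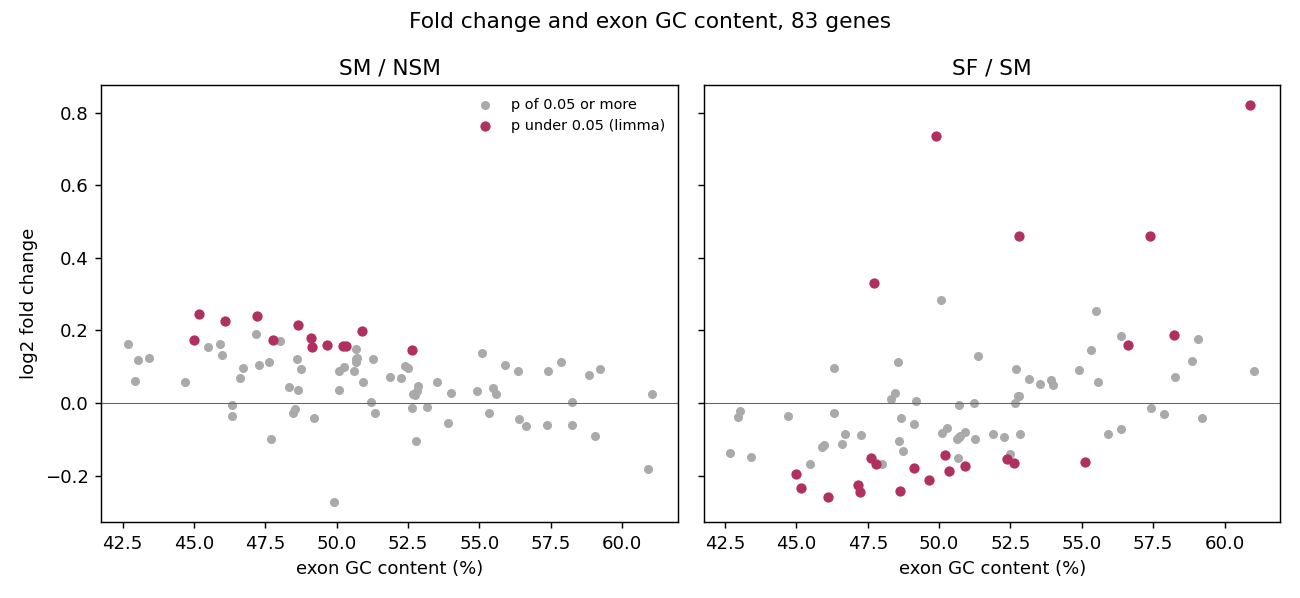
Log2 fold change (vertical axis) against exon GC content in percent (horizontal axis) for 83 ribosomal protein genes, SM over NSM at left and SF over SM at right, with genes at an unadjusted p under 0.05 by limma in red. In males the raised genes lie at low to middle GC content (r = -0.43 over members), and between the stressed sexes the genes higher in females lie mostly at high GC content (r = 0.46).

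Other genes of the translation machinery were counted beside the members. Of all genes, 9.93% were higher and 11.5% lower in SM than NSM at an unadjusted p under 0.05 by limma. Of 19 further mRNAs of elongation factors and other TOP genes, 4 were higher and 0 lower, with a median log2 fold change of 0.09. These were Tpt1 (0.20 ± 0.07), Eef1a1 (0.18 ± 0.08), Eif4b (0.14 ± 0.06) and Pabpc1 (0.12 ± 0.06). In SF over SM, 2 of the 19 were higher, against 11.7% of all genes, and 5 lower, against 4.76%. Among them were Eef2 at 0.13 ± 0.05 and Eef1a1 at -0.19 ± 0.08. Of 3 tested subunit genes named differently, 1 was called lower in SM than NSM by limma, at -0.40. Of all genes, 6.44% were called in either direction. Fau, another of these and a fusion of a ubiquitin-like protein with a small subunit protein, was higher in SF than SM at 0.26 ± 0.10. Its unadjusted p was under 0.05 by limma. Gnb2l1, a scaffold protein on the small subunit, was at -0.01 ± 0.05.

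Genes that build ribosomes and genes that signal to them were counted as well. Of 32 ribosome biogenesis genes, 3 were higher and 2 lower in SM than NSM at an unadjusted p under 0.05 by limma, with a median log2 fold change of 0.02. These counts stand beside 9.93% and 11.5% of all genes. An adjusted p under 0.05 was found for 1 of the 32, against 3.32% of all genes. Mdn1, the large ATPase that strips assembly factors from the young large subunit, was lower at -0.44 ± 0.07 (adjusted p = 0.00922 by limma), and Ncl, nucleolin, higher at 0.17 ± 0.06. Of 23 genes of mTOR signalling to translation and of S6 kinases (Rps6kb and Rps6ka), 2 were higher and 4 lower, beside the same shares of all genes. Here too 1 had an adjusted p under 0.05 by limma. This was Rps6ka2, an S6 kinase of the Rps6ka family and not of the Rps6kb family. It fell from 136 ± 3.76 to 110 ± 2.93 CPM (SD, n = 3), a log2 fold change of -0.30 ± 0.05 (adjusted p = 0.0102 by limma). In females, 1 of the 32 and 0 of the 23 were higher and 0 of either lower, against 1.94% and 2.29% of all genes.

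As yardsticks, 75 mitochondrial ribosomal protein genes and 84 nuclear genes of oxidative phosphorylation were counted in the same way. The mitochondrial ribosomal protein genes had 3 higher and 3 lower in SM than NSM at an unadjusted p under 0.05 by limma, against 9.93% and 11.5% of all genes. Their median log2 fold change was 0.01. The oxidative phosphorylation genes had 21 higher and 1 lower, beside the same shares of all genes. They had a median of 0.09, which is the size of the median of the cytosolic ribosomal protein genes. In SF over NSF the medians were 0.00 and 0.05, beside 0.07 for the members. In SF over SM they were -0.02 and -0.01, beside -0.06 for the members.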

How the data were processed

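Large RNA of 12 NAc pools was made into libraries with the TruSeq RNA kit v2. The authors aligned paired reads with TopHat2 to NCBIM37 and counted them per Ensembl gene with HTSeq, and deposited these counts without normalization. The strand setting and handling of multiply matching reads are not given in the sources used here. Symbols, exons and GC content came from GENCODE (NCBIM37), matched by identifier.

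Genes passing 5 reads in 80% or more of a group's libraries were scaled by TMM factors (edgeR 4.0.16) and fitted with voom and limma 3.58.1 in R 4.3.3, with a mean per group and two-sided moderated tests over all 12 libraries. Following the study's methods, a call needed a fold change from 1.3 up and an unadjusted p under 0.05. The Benjamini-Hochberg adjustment ran over the 18593 genes. CPM values are TMM-scaled. A permutation of 3 against 3 pools, being exact, could not pass 0.05 for any gene. The limma fit was tested on simulated data for SM against NSM only, with changes larger than that of any member in this comparison. Coding sequences were aligned with Biopython 1.88.

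Members and gene lists were chosen with earlier results of these data known. Named were called members, the 5 highest and 5 lowest per kilobase, and members of lists for the P stalk, 5S RNA and p53, the X chromosome and paralogs with their parents. Other members are said to have been picked later. Some genes are not reported here by name. Libraries took their group from the labels. The alternatives were edgeR and DESeq2 1.42.0 fits, other scalings and filters, the replicate number as a block and leaving out libraries. The 12 small RNA libraries were not used.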

Additional observations from a re-analysis of the deposited data

How the results depend on the processing

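Across edgeR, DESeq2, RLE, quantile and library-size scaling, TMM without the members, other read filters, quality weights, thinning and a fit of only the libraries compared (not made for the interaction), the number of called ribosomal protein genes was 0, 0, 0, 1 and 4 as reported for SCVS in males, SCVS in females, the interaction, NSF against NSM and SF against SM. Dropping the fold threshold gave 13, 3, 5 and 23 genes for males, females, NSF against NSM and SF against SM, and an adjusted p under 0.05 without it gave 0 in the last pair of comparisons. Leaving out a library moved the calls between 0 and 2 in males, 0 and 1 in females, 0 and 2 for the interaction, 0 and 3 for NSF against NSM and 1 and 6 for SF against SM. Without NSM1 and SM2, chosen after seeing the data, they were 1 for the interaction, 0 for NSF against NSM and 2 for SF against SM. With mitochondrial reads taken from the total, the mean share of the members was 1.02% in NSM, 1.07% in SM, 0.99% in NSF and 1.03% in SF. With the GC trend removed, also chosen after seeing the data, Rpl8 in NSF against NSM turned to -0.0197, and to -0.0198 with the replicate block added. Among genes at an unadjusted p under 0.05 in the reported limma fit, 10 values lost and 1 gained a call under an alternative. Those lost included Rplp1 and Rps26 without SM2. Members above that p in the reported fit, such as Rpl36 and Rps4y2 in NSF against NSM, also gained calls without a library and are not in this count. An adjusted p under 0.05 in SF against SM was reached by 5 members with DESeq2, 8 with only these libraries and 16 with quality weights. Over all genes these fits gave 591, 508 and 1901. Quality weights also gave 3 members in males, beside 1698 of all genes. The cause was not tested, beyond the fewer samples where a library was left out.

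Samples with the same replicate number did not deviate together throughout (r = 0.030, 0.006 and 0.345 between NSM and SM, and 0.110, 0.088 and 0.127 between NSF and SF), so the numbers were not taken as pairs. Of 6 male libraries 2 correlated best with their own number, and of 6 female libraries 6, a hint from the data only. With the replicate block the calls were again 0, 0, 0, 1 and 4. At an unadjusted p under 0.05 by limma, 23 members in males and 6 in females were higher. Of all genes, 4602 and 1095 were under that p in either direction. An adjusted p under 0.05 was found for 3 members in males and 6 in SF against SM, beside 998 and 837 of all genes.

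With 3 pools a group and a median standard error of 0.07 on the log2 scale, differences of the size seen in most members could not be told from the spread between pools. Rpl3l, at 9 to 30 reads per library, was limited by depth.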
